A study of Mus musculus with 6 samples.

Results

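Transcript levels of 8 genes of creatine phosphate metabolism, oxygen storage and adenylate balance were examined in embryonic mouse cardiomyocytes after knockdown of DNMT1 expression. They were the 4 creatine kinase genes (Ckm, Ckb, Ckmt1 and Ckmt2), the myoglobin gene Mb, the creatine transporter gene Slc6a8, the creatine synthesis gene Gatm and the adenylate kinase gene Ak1. The genes were listed by symbol and matched to Ensembl identifiers. Each symbol matched 1 of the 43629 genes in the count files.

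Creatine kinases move a phosphate group between ATP and creatine. Mitochondrial forms charge creatine where ATP is made, and cytosolic forms return the phosphate to ADP beside the myosin and ion pump ATPases that spend it. The heart makes little creatine of its own and takes it up from blood through the transporter encoded by Slc6a8. Ckb encodes the brain-type subunit that is abundant in embryonic heart, and Ckm, Ckmt2 and Mb are known for their high expression in mature heart muscle.

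The cells were primary ventricular cardiomyocytes of CD-1 mouse embryos at embryonic day 13.5, with the ventricles of each litter pooled. Both groups were transfected at 12 nM, with a pool of 4 siRNAs against Dnmt1 (DNMT1 siRNA) or a non-targeting control (negative siRNA), and poly(A) RNA was sequenced at 72 h in 3 cultures each. Cardiomyocytes were enriched by leaving behind the cells that attach quickly to plastic and, before RNA isolation, by a magnetic sort for the surface protein VCAM1. In the labels, 1 treatment tag names DNMT3a for the knockdown samples, whereas titles and methods name DNMT1. The normalized count of Dnmt1, the maintenance DNA methyltransferase, was 3446, 2759, and 2878 in negative siRNA replicates 1, 2, and 3 and 772, 786, and 666 in DNMT1 siRNA replicates 1, 2, and 3. It fell by 2.03 on the log2 scale (SE 0.11, edgeR quasi-likelihood test, FDR = 0.000192), and the change of Dnmt3a, 0.24, did not pass (FDR = 0.0919).

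Reads counted on genes ranged from 27852412 to 35896018 with negative siRNA and from 13739561 to 16186310 with DNMT1 siRNA. Reads outside annotated exons made up 14.6% to 17.5% of unique reads with negative siRNA and 24.4% to 32.0% with DNMT1 siRNA. The 8 cardiomyocyte markers summed to 43207 to 52027 normalized counts with negative siRNA and to 91838 to 116110 with DNMT1 siRNA, and 7 of the 8 were up-regulated, or 4 without DNMT1 siRNA replicate 2 and 5 to 8 without any other culture. Sums of 8 fibroblast markers lay at 783470 to 1208900 and at 594990 to 634860, those of 6 smooth muscle markers at 114680 to 171260 and at 95533 to 99783, and those of 6 macrophage markers at 314 to 785 and at 264 to 378. The 6 endothelial markers summed to 1216 to 2028 and to 1933 to 2256, 5 epicardial markers to 28124 to 32216 and to 30208 to 31446, and 6 neuronal markers to 1529.7 to 2752 and to 1548 to 1637. Most of the fibroblast sum was Col1a1, Col1a2 and Col3a1, with control means of 504780, 225310, and 182390 normalized counts. Of the 8 fibroblast markers, 3 were down-regulated, and Tcf21 (1.004-fold), Postn and Lum overlapped between the groups. Of the 6 smooth muscle markers, 1 was down-regulated, and Rgs5 was 2.15-fold higher but did not pass (edgeR FDR = 0.111). All 8 cardiomyocyte markers were detected in every library of the sorted cells. In each library the fibroblast markers, mainly the collagen genes, summed to far more counts than these did. The authors report that, by their earlier flow cytometry, the large majority of magnetically sorted cells were cardiomyocytes. They also report that the percentage of cardiomyocytes in culture, by staining, did not change with knockdown. Sums of different genes do not give shares of cells and cannot be set directly against these measures. The gene levels below are those of the whole RNA of each culture and cannot be assigned to cardiomyocytes alone. In bulk samples, fewer cells of a type and less RNA per cell cannot be told apart.

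**Figure D1:**
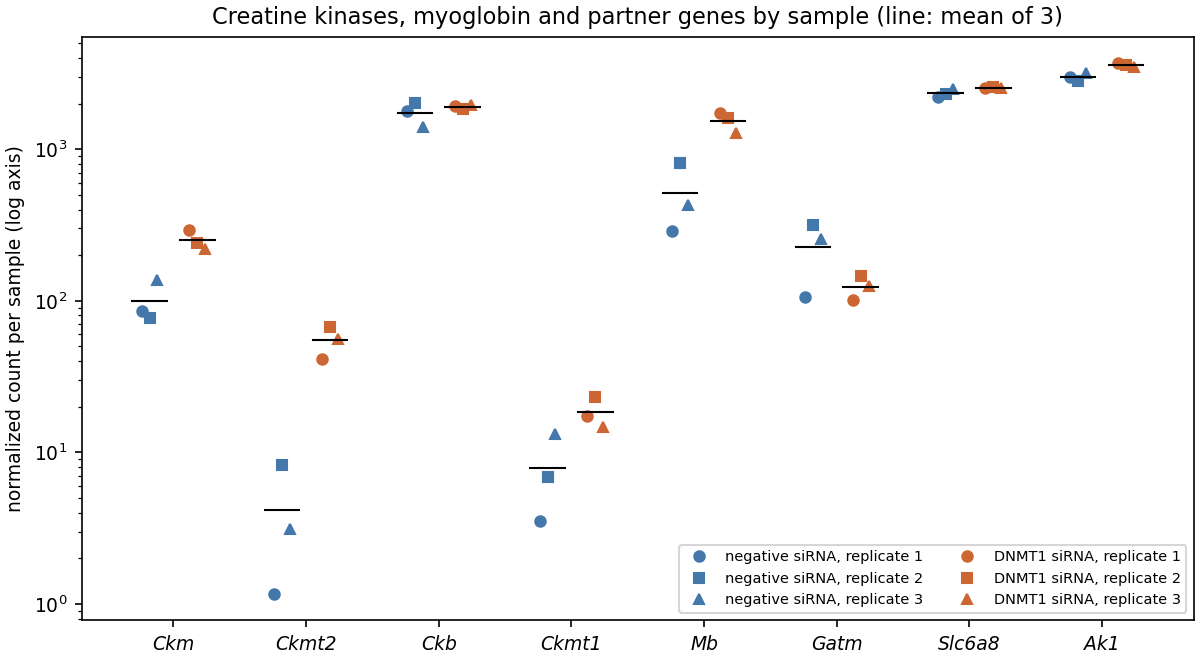
Normalized count of each gene (log axis) in the 3 negative siRNA (blue) and 3 DNMT1 siRNA (orange) cultures, with the replicate shown by the marker and the mean of 3 by a line. Ckm, Ckmt2 and Mb lie higher in all 3 DNMT1 siRNA cultures, with Mb at 1277 to 1739 against 289 to 816, and Ckb and Gatm overlap between the groups.

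DNMT1 siRNA up-regulated 3 of the 8 genes, Ckm, Ckmt2 and Mb, at an FDR below 0.05 and a fold change above 1.5, against 4.26% of the 15470 tested genes in this direction and 6.49% in either. None of the 8 was down-regulated, against 2.23% of all tested genes, although Gatm had an unadjusted p of 0.0457 for a decrease. By DESeq2, none was down-regulated either. In 6 of the 8 genes every DNMT1 siRNA culture lay above every negative siRNA culture, as did 18.3% of all tested genes. The groups overlapped in the other two, Ckb and Gatm, and no gene lay lower without overlap. Over all tested genes, 17.7% lay lower without overlap and 36.0% did not overlap in either direction. All 8 passed the filter on low counts, Ckmt2 and Ckmt1 only through the DNMT1 siRNA group, since 0 and 1 of the 3 negative siRNA cultures reached the filter's cutoff of 0.454 CPM, counts per 1000000 counts on genes.

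The stretches of 250 bases upstream of the RefSeq starts of 5 of these genes (GRCm38.p6) are shown, as those of the 3 up-regulated genes and of Ckb and Gatm, which overlapped between the groups. Each reads 5′ to 3′ on the strand of its gene, and capitals mark CG dinucleotides, the pairs that DNMT1 keeps methylated when DNA is copied. The windows are chr7:19410844-19411093 (plus strand) for Ckm, chr13:91876886-91877135 (minus strand) for Ckmt2, chr15:77022728-77022977 (minus strand) for the most 3′ of the 3 Mb starts, chr12:111672339-111672588 (minus strand) for Ckb, and chr2:122611278-122611527 (minus strand) for Gatm.
Ckm: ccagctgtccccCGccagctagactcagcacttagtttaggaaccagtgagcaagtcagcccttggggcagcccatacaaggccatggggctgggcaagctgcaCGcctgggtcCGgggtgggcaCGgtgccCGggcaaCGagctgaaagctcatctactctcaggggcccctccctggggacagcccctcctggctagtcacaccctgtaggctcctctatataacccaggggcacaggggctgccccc
Ckmt2: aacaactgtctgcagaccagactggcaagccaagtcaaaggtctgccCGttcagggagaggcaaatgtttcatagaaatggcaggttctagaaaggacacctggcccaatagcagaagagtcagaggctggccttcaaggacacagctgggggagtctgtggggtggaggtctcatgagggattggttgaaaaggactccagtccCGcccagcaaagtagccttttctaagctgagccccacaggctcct
Mb: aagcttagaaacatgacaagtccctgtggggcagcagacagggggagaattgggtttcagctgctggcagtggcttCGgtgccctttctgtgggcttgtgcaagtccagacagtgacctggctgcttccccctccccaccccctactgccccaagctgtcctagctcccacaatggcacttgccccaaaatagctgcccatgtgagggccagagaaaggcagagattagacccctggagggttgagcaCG
Ckb: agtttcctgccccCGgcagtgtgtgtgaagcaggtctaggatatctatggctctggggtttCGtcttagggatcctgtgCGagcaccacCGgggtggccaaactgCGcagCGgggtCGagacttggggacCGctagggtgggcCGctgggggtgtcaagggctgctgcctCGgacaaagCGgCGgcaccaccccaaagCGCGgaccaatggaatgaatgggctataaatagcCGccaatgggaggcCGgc
Gatm: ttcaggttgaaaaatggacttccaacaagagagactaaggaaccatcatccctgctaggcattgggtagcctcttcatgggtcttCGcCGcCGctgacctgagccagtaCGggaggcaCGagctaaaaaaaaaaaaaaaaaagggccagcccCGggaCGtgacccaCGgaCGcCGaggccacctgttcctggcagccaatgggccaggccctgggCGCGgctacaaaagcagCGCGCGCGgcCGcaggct

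Ckm held 6 CG dinucleotides in its window and Ckmt2 held 2. The shown Mb window held 2 as well, and those of the other Mb starts held 8 and 1. Ckb and Gatm held 16 and 17. The windows not shown, of genes that were not up-regulated either, held 4 and 9 for the 2 starts of Ckmt1 and 4, 5, 2, and 1 for the 4 starts of Ak1, within the range of the up-regulated genes or close to it, so that CG number did not separate the up-regulated genes from the others. The median over 32851 such mouse windows was 6, with quartiles of 2 and 16, so that the windows of Ckb and Gatm lay at or above the upper quartile and those of Ckmt2 and of the shown Mb start at the lower quartile. The letters CANNTG, the core of the E-box bound by many muscle transcription factors, occurred 1 time in Ckm, 4 times in Ckmt2, 3 times in the shown Mb window, 1 time in Gatm and 0 times in Ckb, and at least 1 time in 66.2% of all windows. These letters read the same on both strands. TATAAA, searched on both strands, occurred in Ckb and in none of the other 4 windows shown, and in 12.4% of all windows. It overlapped there with the MEF2 motif, whose 2 matches were the same bases read on each strand. At least 1 such match occurred in 1.69% of all windows. These are matches of letters, and methylation of these windows was not analysed here. No window was matched for Slc6a8.

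Ckm (ENSMUSG00000030399, chromosome 7, 19404776 to 19422841 of GRCm38, plus strand) encodes the muscle-type subunit of cytosolic creatine kinase, part of which sits at the M-line of the sarcomere. Its normalized counts were 85.8, 77.2, and 137 in negative siRNA replicates 1, 2, and 3 and 291, 239, and 221 in DNMT1 siRNA replicates 1, 2, and 3. The lowest DNMT1 siRNA culture thus lay above the highest negative siRNA culture. The mean rose 2.52-fold, by 1.33 on the log2 scale (SE 0.23, 95% interval 0.81 to 1.86, edgeR quasi-likelihood test, FDR = 0.00995). The change no longer passed when DNMT1 siRNA replicate 1 (1.18, edgeR FDR = 0.0551) or replicate 2 (1.36, edgeR FDR = 0.0528) was left out, and it did pass without each of the other 4 cultures. Of the exons of Ckm, 451 of 2913 bases (15.5%) are shared with the antisense gene A930016O22Rik, which had 0 to 2 counts in any library. The library kit does not mark strand, so that reads from the shared bases cannot be assigned to either gene.

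Ckmt2 (ENSMUSG00000021622, chromosome 13, 91853387 to 91876885, minus strand) encodes the sarcomeric mitochondrial creatine kinase, which sits between the mitochondrial membranes of striated muscle. It had 2, 12, and 4 reads with negative siRNA and 31, 46, and 34 with DNMT1 siRNA, from libraries that were the smaller ones. After normalization these were 1.17, 8.27, and 3.11 against 41.6, 67.1, and 55.6. The lowest DNMT1 siRNA culture, at 41.6, stood far above the highest control, at 8.27. It rose by 3.70 on the log2 scale (SE 0.53, 95% interval 2.49 to 4.91, edgeR FDR = 0.00471). The low negative siRNA counts limit the precision of this fold change, since 2 reads have an exact Poisson 95% interval of 0.242 to 7.22 reads, counting error only. Leaving out single cultures moved the log2 fold change between 3.21 and 4.68, and the gene passed in all 6 of these fits. An antisense gene, 1700119I11Rik, shares 84 bases (5.65%) of the Ckmt2 exons and had 0 or 1 read.

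Ckb (ENSMUSG00000001270, chromosome 12, 111669361 to 111672338, minus strand), the brain-type cytosolic subunit, had 1787, 2019.8, and 1399.7 normalized counts with negative siRNA and 1924, 1829, and 1954 with DNMT1 siRNA. The 3 DNMT1 siRNA cultures fell within the range of the controls. The difference of 0.13 on the log2 scale did not pass (SE 0.12, 95% interval -0.15 to 0.42, edgeR FDR = 0.518), and the interval excludes a 1.5-fold change in either direction. Ckmt1 (ENSMUSG00000000308, chromosome 2, 121357714 to 121363737, plus strand), the ubiquitous mitochondrial form, was rare, with 6, 10, and 17 reads with negative siRNA and 13, 16, and 9 with DNMT1 siRNA. Normalized, these were 3.50, 6.89, and 13.2 against 17.4, 23.3, and 14.7. The groups did not overlap, but the log2 fold change of 1.27 (SE 0.49, 95% interval 0.15 to 2.39) did not pass (edgeR FDR = 0.129). Without negative siRNA replicate 3 it was 1.84 and did pass (edgeR FDR = 0.047).

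**Figure D2:**
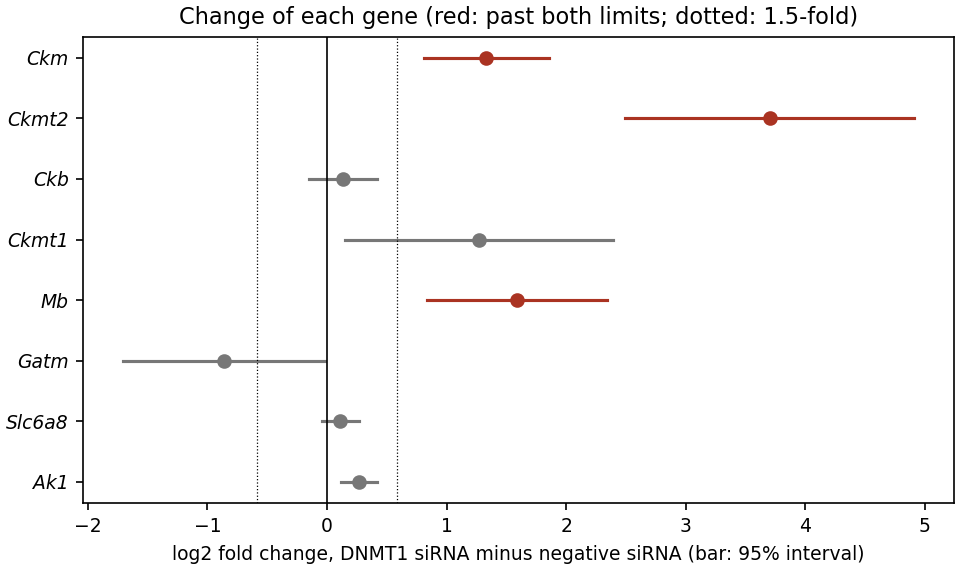
Log2 fold change of each gene, DNMT1 siRNA minus negative siRNA, with the 95% interval as a bar; dotted lines mark a 1.5-fold change in either direction. Ckmt2 lies at 3.70, Mb at 1.59 and Ckm at 1.33, whereas the interval of Ckb, -0.15 to 0.42, stays within the dotted lines.

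To describe the makeup of the creatine kinase pool, the reads of each gene were divided by its exon length and expressed as a percent of the sum of the 4 genes in each sample. Ckb took 95.1%, 95.2%, and 89.9% of the pool with negative siRNA and 83.1%, 82.2%, and 85.0% with DNMT1 siRNA. Its mean share was 93.4% ± 3.06 (SD, n = 3) and 83.5% ± 1.41 (SD, n = 3), without overlap. The exact two-sided permutation test gave p = 0.1, the smallest value that 3 cultures against 3 allow.

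Ckm made up 4.54%, 3.62%, and 8.74% of the pool in the controls and 12.5%, 10.7%, and 9.54% after knockdown, and negative siRNA replicate 3 came close to the lowest DNMT1 siRNA culture. Ckmt2 went from a mean of 0.423% to 4.69%, with the 3 controls at 0.121%, 0.760%, and 0.389% and the DNMT1 siRNA cultures at 3.50%, 5.87%, and 4.71%. Both shares gave p = 0.1 in the same exact permutation test. With the longest coding transcript as the length, the mean shares differed by 3.23 percentage points for Ckm and by 2.36 for Ckmt2, in place of 5.27 and 4.27. The share of Ckmt1 was 0.526% and 0.944%, with overlap between the groups (exact permutation p = 0.3). Ckb remained the most abundant creatine kinase transcript in every culture.

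Ratios taken within a sample do not depend on the scaling of libraries. The log2 ratio of Ckm to Ckb per kb was -4.16 ± 0.71 (SD, n = 3) in the controls and -2.95 ± 0.21 (SD, n = 3) after knockdown, higher by 1.21 and without overlap (exact permutation p = 0.1). The ratio of Ckmt2 to Ckmt1, the sarcomeric to the ubiquitous mitochondrial form, was higher by 2.70 and that of Ckmt2 to Ckm by 2.75, again without overlap (exact permutation p = 0.1 for each). These 2 differences rest on few Ckmt2 reads, and without negative siRNA replicate 2 they were 3.40 and 3.62 and without replicate 1 they were 2.48 and 2.13. The log2 ratio of Mb to Ckm was 3.24 ± 0.98 and 3.58 ± 0.11 (SD, n = 3), with overlap (exact permutation p = 0.5).

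**Figure D3:**
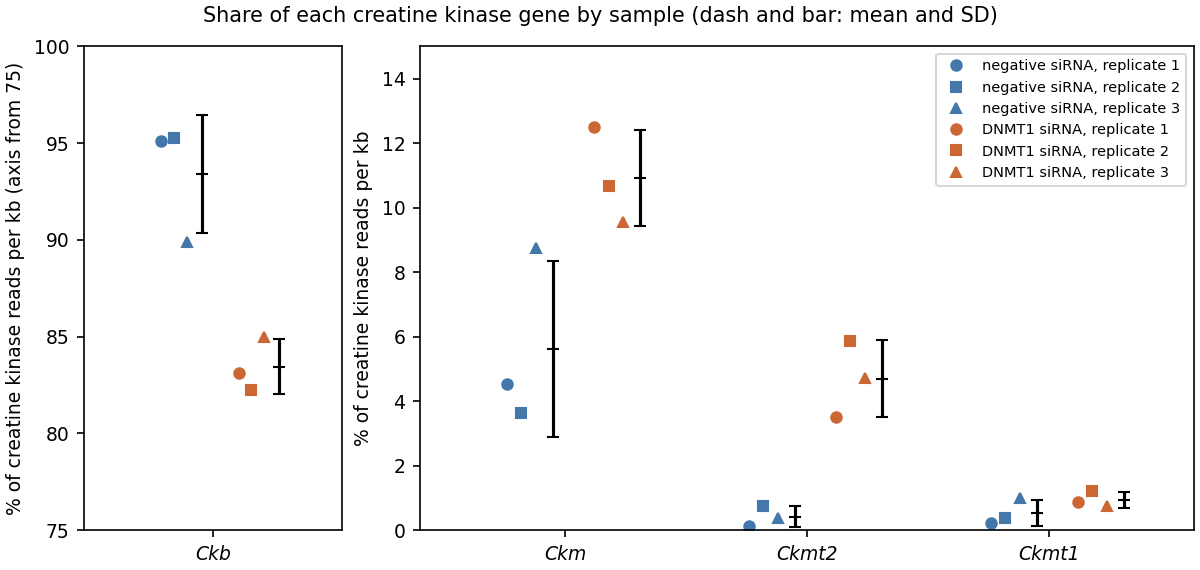
Share of each creatine kinase gene in the summed creatine kinase reads per kb, in percent, by culture; dashes and bars give the mean and SD of 3, and the left axis for Ckb runs from 75 to 100. Ckb falls from a mean of 93.4% to 83.5%, while Ckmt2 goes from 0.423% to 4.69%.

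Mb (ENSMUSG00000018893, chromosome 15, 77015487 to 77050670, minus strand) encodes myoglobin, the heme protein that stores oxygen and aids its diffusion in heart and skeletal muscle. Its normalized counts were 289, 816, and 431 with negative siRNA and 1739, 1598, and 1277 with DNMT1 siRNA. Control replicate 2 was well above the other controls and still below all 3 DNMT1 siRNA cultures. The mean rose 3.01-fold, by 1.59 on the log2 scale (SE 0.33, 95% interval 0.84 to 2.34, edgeR FDR = 0.0199). The size of the change depended on that control: without negative siRNA replicate 2 it was 2.11 (edgeR FDR = 0.000181). The call was lost without DNMT1 siRNA replicate 1 (1.47, edgeR FDR = 0.0787), 2 (1.56, edgeR FDR = 0.0899) or 3 (1.69, edgeR FDR = 0.0564), and without negative siRNA replicate 3 (1.48, edgeR FDR = 0.0532). Exons of Mb share 64 of 1492 bases (4.29%) with Apol6 on the other strand, which was itself up-regulated, from 11.1 ± 2.13 to 30.5 ± 3.23 normalized counts (SD, n = 3). A further 412 bases (27.6%) are shared with the antisense gene Gm49540, which was not analysed here.

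Markers of the other two lineages known for globin or myoglobin expression were measured beside it. Of 8 erythroid markers, Alas2 was the only one tested, at 18.5 and 43.4 normalized counts (edgeR FDR = 0.086), Hba-a2 had 0 reads in all 6 libraries, and the globin genes Hba-a1, Hbb-bs, Hbb-bt and Hbb-y had reads in DNMT1 siRNA replicate 2 alone, at most 4. The skeletal muscle factors Myod1, Myog and Myf5 had 0 to 3 reads in any library. The erythroid sum was 11.03 to 28.0 and 26.8 to 71.4, and the sum of 6 skeletal muscle markers was 79.4 to 167 and 178 to 194. Most of the latter was Actn3, a fast-fibre actinin, at 58.9, 136, and 115 normalized counts in the controls and 174, 155, and 172 after knockdown, higher without overlap but not past the limit (log2 fold change 0.70, edgeR FDR = 0.144). The part of either lineage in the change of Mb or Ckm was not tested.

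Slc6a8 (ENSMUSG00000019558, chromosome X, 73673150 to 73682502, plus strand), the creatine transporter, had 2226, 2307, and 2509 normalized counts with negative siRNA and 2521, 2557, and 2528.5 with DNMT1 siRNA. The groups did not overlap by a narrow margin, and the difference of 0.11 on the log2 scale did not pass (SE 0.07, 95% interval -0.04 to 0.27, edgeR FDR = 0.311). Gatm (ENSMUSG00000027199, chromosome 2, 122594467 to 122611303, minus strand) encodes the mitochondrial amidinotransferase of the first step of creatine synthesis. It had 106, 318, and 254 normalized counts with negative siRNA against 102, 146, and 124 with DNMT1 siRNA. Control replicate 1 lay among the DNMT1 siRNA cultures, and the log2 fold change of -0.86 did not pass (SE 0.37, 95% interval -1.71 to -0.02, edgeR FDR = 0.162). Without that control it was -1.21 and passed (edgeR FDR = 0.00725). Gamt, the methyltransferase of the second step, had 210 and 188 normalized counts (log2 fold change -0.16, edgeR FDR = 0.655), so that 0 of the 3 genes of creatine synthesis and uptake passed.

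Ak1 (ENSMUSG00000026817, chromosome 2, 32621758 to 32635058, plus strand), the cytosolic adenylate kinase that converts ADP to ATP and AMP in muscle, had 2988, 2839, and 3168 normalized counts with negative siRNA and 3692, 3615, and 3505 with DNMT1 siRNA. All 3 DNMT1 siRNA cultures were higher, by 0.27 on the log2 scale (SE 0.07, 95% interval 0.11 to 0.42), or 1.20-fold. It passed the FDR limit (edgeR FDR = 0.0366), as did 12.5% of all tested genes in either direction, but not the limit on fold change. Without DNMT1 siRNA replicate 1, 2 or 3 its edgeR FDR was 0.186, 0.160, and 0.134, and without negative siRNA replicate 1 it was 0.0534, so that the FDR limit was then missed. Among other adenylate kinases, Ak3 of the mitochondrial matrix differed by 0.18 (edgeR FDR = 0.166), and Ak4, Ak5 and Ak6 by -0.30, -0.25, and -0.39, none of which passed.

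Per kb of exon and 1000000 reads, the order of the mean levels in the controls was Ak1 at 53.3, Ckb at 27.6, Slc6a8 at 20.8, Mb at 15.8, Gatm at 3.47, Ckm at 1.58, Ckmt1 at 0.145, and Ckmt2 at 0.13. Neighbours in this order did not differ beyond the spread of the controls for Slc6a8 and Mb, whose SDs were 1.29 and 8.40, for Gatm and Ckm, with SDs of 1.67 and 0.51, nor for Ckmt1 and Ckmt2, with SDs of 0.0910 and 0.114. With DNMT1 siRNA the level of Mb, 47.5 ± 7.30 (SD, n = 3), stood second behind Ak1 at 64.0 ± 1.67 and above Ckb at 30.3 ± 1.04. With the length of the longest coding transcript in place of merged exons, the order of the control means was the same, but Mb at 64.2 ± 9.87 and Ckb at 59.5 ± 2.04 then overlapped with DNMT1 siRNA (SD, n = 3), and Ckb lay above Mb in replicate 3. Per kb of merged exon with DNMT1 siRNA, Ckm at 3.96 ± 0.58 lay above Gatm at 1.90 ± 0.34. Ckmt2 at 1.70 ± 0.40 came close to Gatm and above Ckmt1 at 0.341 ± 0.08. By the longest coding transcript, Ckm lay at 4.20 ± 0.61, Gatm at 2.39 ± 0.42, Ckmt2 at 1.70 ± 0.40 and Ckmt1 at 0.526 ± 0.125.

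The summed cardiomyocyte markers rose beside these genes, from a mean of 47200 ± 4468 to 105000 ± 12280 normalized counts (SD, n = 3), by a ratio of 2.23 (exact permutation p = 0.1). Each gene was therefore also expressed per 1000 marker counts, a comparison chosen after the marker sums were seen. On this scale Ckm was 1.99, 1.48, and 2.95 in the controls and 2.51, 2.23, and 2.40 after knockdown, with the DNMT1 siRNA cultures inside the range of the controls (exact permutation p = 0.7). Mb was 6.70, 15.7, and 9.29 against 14.98, 14.9, and 13.9, and control replicate 2 was the highest of all (exact permutation p = 0.4). Ckmt2 alone of the 8 was higher without overlap, at 0.0270, 0.159, and 0.0671 against 0.358, 0.626, and 0.606, a log2 ratio of means of 2.65 (exact permutation p = 0.1). It had 2, 12, and 4 reads in the controls and passed the filter only through the DNMT1 siRNA group. Its place on this scale is thus no separate support for its rise. Tnnt2, Myh6 and Actc1 weighed most in the marker sum, with control means of 16859, 16186, and 8336 normalized counts. The markers rose unequally, by 1.335-fold for Myl7, 1.53-fold for Tnnt2 and 3.04-fold for Ryr2. The overlap of Ckm and Mb on this scale thus depends on the weight of each marker.

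On the same scale, Ckb, Slc6a8, Ak1, and Gatm were lower after knockdown in every culture, with log2 ratios of means of -1.01, -1.04, -0.89, and -1.97 (exact permutation p = 0.1 for each), and Ckmt1 overlapped, at 0.08. Since the marker sum itself rose by 1.15 on the log2 scale, a gene with little change of its own comes out about that much lower, and the values of Ckb, Slc6a8 and Ak1 add nothing to that rise. The part that a change in cell makeup, or in marker expression per cell, had in these results was not tested.

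**Figure D4:**
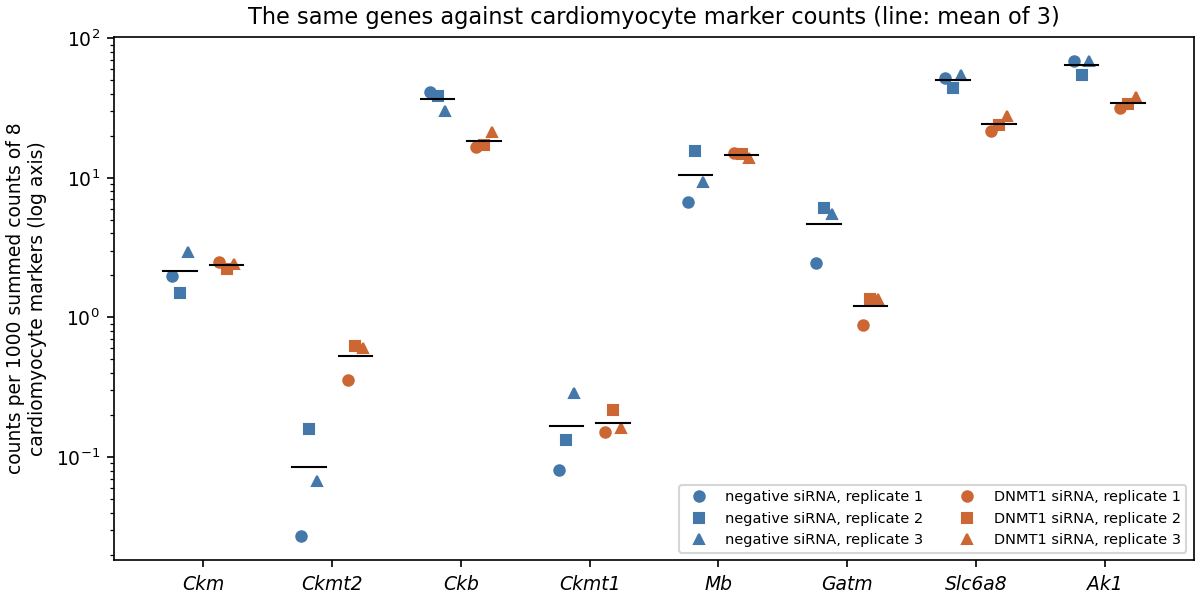
Counts of each gene per 1000 summed counts of 8 cardiomyocyte markers (log axis), by culture, with the mean of 3 as a line. Ckm and Mb overlap between the groups on this scale, and Ckb, Gatm, Slc6a8 and Ak1 are lower in all 3 DNMT1 siRNA cultures. Ckmt2, with 2, 12, and 4 control reads, lies higher at 0.358 to 0.626 against 0.0270 to 0.159.

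The wider energy transfer and heme lists held 59 further genes, of which 50 were tested. Of these, 7 were up-regulated and 0 were down-regulated (edgeR), against 4.26% and 2.23% of all tested genes, with 7 lower at an unadjusted p below 0.05 and 1 down-regulated by DESeq2. Their median log2 fold change was 0.0052, and that of all tested genes was -0.0049. The up-regulated genes were 2 subunits of the AMP-activated protein kinase, an AMP deaminase, 2 M-line proteins and 2 ATPases.

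AMP-activated protein kinase senses AMP and ADP. Its catalytic subunit gene Prkaa2 had 718, 698, and 685 normalized counts in the controls and 1302, 1409.5, and 1196 after knockdown, a rise of 0.90 on the log2 scale (SE 0.08, edgeR FDR = 0.000931). Prkab2, a scaffold subunit, rose by 0.70 (SE 0.08, edgeR FDR = 0.00176), from 1760 ± 152 to 2862 ± 19.0 normalized counts (SD, n = 3). The other catalytic subunit gene Prkaa1 had 1454 ± 104 and 1529 ± 45.8 (edgeR FDR = 0.567), and 2 of the 7 subunits passed in all.

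Ampd3, an AMP deaminase, had 107, 166, and 226 normalized counts with negative siRNA and 388, 394, and 379 with DNMT1 siRNA. It rose by 1.22 on the log2 scale (SE 0.24, edgeR FDR = 0.016) and did not pass without any 1 of the 3 DNMT1 siRNA cultures, with an FDR of up to 0.0779 in these edgeR fits. In the same purine cycle list, Adss and Ampd2 differed by -0.24 (edgeR FDR = 0.0666) and -0.03 (edgeR FDR = 0.863), and 1 of 5 tested genes passed.

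Of the genes for sarcomere proteins that anchor metabolic enzymes, Myom1 and Myom2 encode M-line proteins and Fhl2 an adaptor that binds several of them. Myom2 had 268, 377, and 373 normalized counts in the controls and 996, 822, and 778 after knockdown, without overlap, and rose by 1.35 (SE 0.15, edgeR FDR = 0.00199). Myom1 rose by 0.98 (SE 0.16, edgeR FDR = 0.00747), whereas Fhl2 differed by 0.21 (edgeR FDR = 0.0848).

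Among ATPases that creatine phosphate serves, Myh6, the alpha cardiac myosin heavy chain, rose by 1.41 (SE 0.18, edgeR FDR = 0.00316). Atp2a2, the calcium pump of the sarcoplasmic reticulum, rose by 0.65 (SE 0.09, edgeR FDR = 0.00354). Without DNMT1 siRNA replicate 1 its log2 fold change of 0.5819 fell just under the fold change limit. Its edgeR FDR was at most 0.0315 with any single culture left out.

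None of 5 tested nucleoside diphosphate kinases and none of 6 tested genes of mitochondrial ATP and phosphate exchange passed both limits. In the former list the genes with most counts, Nme1 and Nme4, differed by 0.04 and -0.08. In the latter, Slc25a4, the ADP/ATP carrier of heart muscle, had 8139, 9262, and 7578 normalized counts against 10733, 10345, and 9988 and passed the FDR limit alone (log2 fold change 0.31, edgeR FDR = 0.0491), and the phosphate carrier Slc25a3 differed by 0.02. In the globin and heme list, Mb was the only 1 of 14 tested genes to pass. The heme synthesis genes Cpox and Fech differed by -0.25 (edgeR FDR = 0.125) and -0.05 (edgeR FDR = 0.782).

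**Figure D5:**
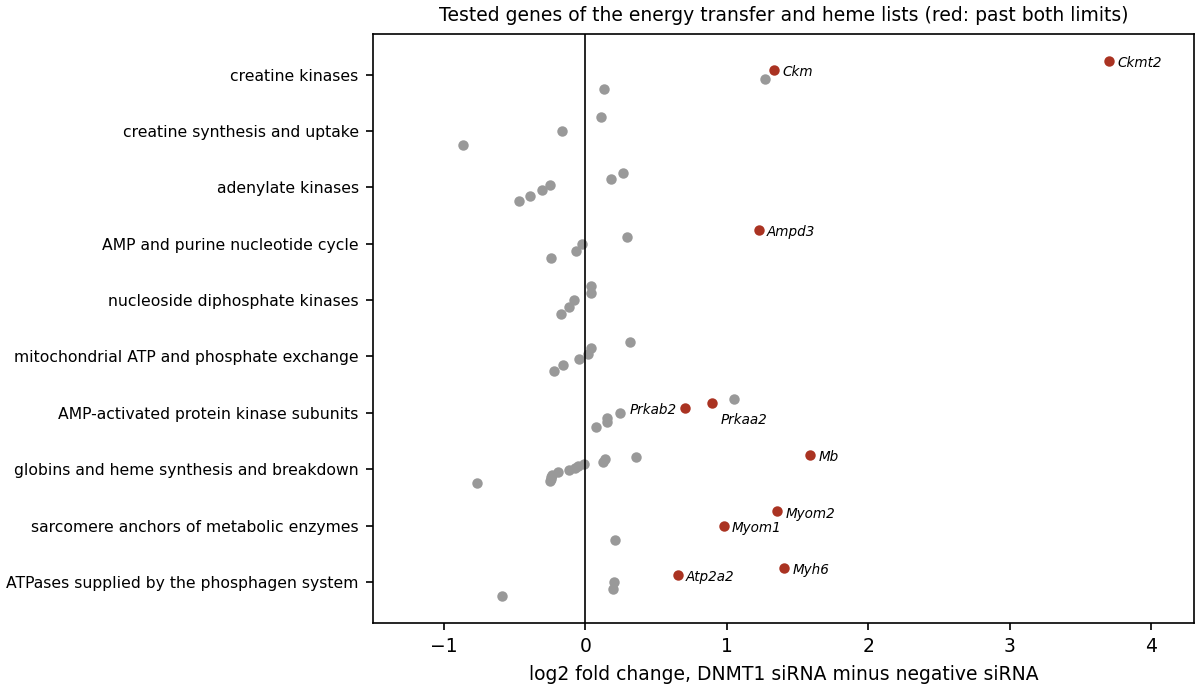
Log2 fold change, DNMT1 siRNA minus negative siRNA, of each tested gene in 10 lists of energy transfer and heme genes, with genes past both limits in red and named. The 10 red points all lie to the right of 0, from 0.65 for Atp2a2 to 3.70 for Ckmt2, and the nucleoside diphosphate kinases and the mitochondrial exchange genes gather near 0.

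The genes whose log2 CPM values were most like those of 3 of the members over the 6 cultures were taken from 12737 genes, by Pearson's r as a description. All 6 cultures form 2 treatment groups, so that any gene that differs between the groups scores high. For Ckm they were Tango2, Fgf1 and Tssc4 (r of 0.998, 0.995, and 0.994), and 728 genes had an r above 0.9. For Mb they were Asb2, Gja4 and Txlnb (0.997, 0.994, and 0.994), which like Mb were higher in control replicate 2 than in the other controls, with Asb2 at 194, 403, and 241. For Ckb they were Fst, Tnc and Wdr53 (0.990, 0.984, and 0.983), each lowest in control replicate 3, as was Ckb itself.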

How the data were processed

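The authors isolated poly(A) RNA, prepared libraries with a NEBNext kit that does not mark strand, sequenced them on a NextSeq500, mapped reads to mm10 with TopHat2 after FastQC, and counted reads per Ensembl gene of GRCm38 with HTSeq. The deposited values are raw counts per gene, 1 file per sample, without normalization; HTSeq's strand setting is not given in the sources used here. Totals that name no gene (16.4% of unique reads outside exons with negative siRNA and 29.3% with DNMT1 siRNA, and 3.62% and 6.15% ambiguous) were left out of library sizes.

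Counts were tested in R 4.3.3 with the quasi-likelihood F test of edgeR 4.0.16 (TMM scaling, filterByExpr with minimum count 10, minimum total 15), with Benjamini-Hochberg adjustment (FDR) over 15470 genes and no block. The limits for a call were an FDR under 0.05 and more than 1.5-fold change in either direction. The size of the log2 fold change over the square root of F gave the SE. For normalized counts, counts were scaled by effective library sizes to the geometric mean of these. Positions and exon lengths came from GENCODE M21 of GRCm38, which holds 42462 of the 43629 genes, and promoter windows from RefSeq. Permutation tests were exact and two-sided. With 3 cultures per group they cannot give a p below 0.1. Replicates are separate samples, and as far as litters or cultures were shared, p-values measure only the spread between these samples.

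The genes, lists and comparisons were chosen with earlier results of these data known. All 8 genes were described, with Dnmt1, Dnmt3a and neighbours that share bases. In each list the genes past both limits (at most 4, by size of change) and the 2 of highest mean were named, except for 1 not reported here, with Ak4, Ak5 and Ak6 added after their values were seen. For Ckm, Mb and Ckb, the 3 genes most like them with an average log2 CPM above 1 (prior count 2) were named. In simulated data for DNMT1 siRNA against negative siRNA over 15470 genes, edgeR recovered 71 of 100 genes changed by 1 on the log2 scale and 90 of 100 changed by 2, with 15 unchanged genes called. Pairs of replicates differed by a chi-square per degree of freedom of 28.9 to 59.7 with negative siRNA and 2.89 to 10.7 with DNMT1 siRNA. No file was thus a copy. The DNMT1 siRNA libraries were smaller, which lowers this value, but their normalized counts were also closer to each other. The SD of Ckb was 18.0% of the mean in the controls and 3.43% after knockdown, and it was lower after knockdown in all 8 genes. The fit used 1 dispersion per gene for both groups. How closely the DNMT1 siRNA cultures were related was not tested. Alternatives were DESeq2 1.42.0, edgeR's exact test and glmTreat, RLE normalization, other filters, libraries thinned to the smallest, other limits, a replicate block, and leaving out each culture. Others (other gene lengths and levels per marker count) were added after the data were seen.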

Additional observations from a re-analysis of the deposited data

Results flagged for a closer look

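Reads outside annotated exons, which no comparison of genes uses, made up 29.28% ± 4.23 (SD, n = 3) of unique reads with DNMT1 siRNA, above the 16.4% ± 1.58 (SD, n = 3) of the controls. The groups did not overlap (exact permutation p = 0.1, the smallest that 3 against 3 allow). Beside it, the number of genes with at least 1 read was 23373 to 24204 in the controls and 20761, 26011, and 25337 in DNMT1 siRNA replicates 1, 2, and 3. In the same 3 cultures, reads outside exons made up 24.4%, 31.5%, and 32.0% of unique reads, and Ckmt2 had 31, 46, and 34 reads. The part of reads outside exons in the counts of Ckmt1 and Ckmt2 was not tested.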

How the results depend on the processing

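No log2 fold change of the 8 genes changed sign in any of the alternative fits. Per cardiomyocyte marker count, Ckb (-1.01), Slc6a8 (-1.04) and Ak1 (-0.89) came out lower. The marker sum rose by 1.15 on the log2 scale, which lowers any gene with little change of its own. These lower values are thus no separate result. Ckmt2 passed in 13 of 13 fits, Ckm in 11 of 14 and Mb in 9 of 14, and Ckb, Slc6a8 and Ak1 in none. Leaving out each culture, the log2 fold change ranged from 1.18 to 1.62 for Ckm, from 1.30 to 2.11 for Mb, from 0.89 to 1.84 for Ckmt1 and from -1.21 to -0.53 for Gatm, the number of members up-regulated from 1 to 3 and down-regulated from 0 to 1, the further listed genes up-regulated from 5 to 9 and down-regulated from 0 to 1, and all genes up-regulated from 255 to 823 and down-regulated from 112 to 472. Fewer samples enter those fits. With glmTreat, a test against the fold change limit itself, 1 member, 3 further listed genes, 140 genes in all were up-regulated and 36 down-regulated, and Ckm (1.33, edgeR FDR = 0.101) and Mb (1.59, edgeR FDR = 0.152) no longer passed. Without a filter, 994 genes were up-regulated and 701 down-regulated (659 and 345 with it), 1 of them Gatm (-0.89, edgeR FDR = 1.65e-05), the 1 member down-regulated; 1 further listed gene was down-regulated there, 1 by DESeq2 and 1 without a limit on fold change, where all genes came to 1054 and 874. At an FDR below 0.01 they came to 296 and 124. The causes of the changes by filter and tool were not tested. Without division by length, the difference in the share of Ckmt2 was 2.25 percentage points, and with the longest coding transcript 2.36, in place of 4.27; with the latter that of Ckb was -5.96 in place of -9.96 and that of Ckm 3.23 in place of 5.27.

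Samples of equal number correlated at 0.01, -0.02, and 0.03 after group means were removed, so that the numbers gave no sign of pairing. With a replicate block, Ckm was at 1.36 (edgeR FDR = 0.0245), Mb at 1.70 (edgeR FDR = 0.0226) and Ckmt2 at 3.79 (edgeR FDR = 0.00914), 3 members passed, and 513 genes were up-regulated and 285 down-regulated. Ak1 missed the FDR limit under the block (edgeR FDR = 0.0816) and without a filter (edgeR FDR = 0.0729). In libraries thinned to the smallest, Ckmt2 had a sample at 0 reads, so that its ratios gave no value, and Ckmt1 was not tested there. Neither mitochondrial form was tested with at least 10 counts required in every sample. Depth limits the precision for both.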
